A study of Mus musculus with 2 samples.

Results

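Cytokine receptors and the Janus kinase (Jak), Stat and Socs genes that act behind them were examined in long-term hematopoietic stem cells (LT-HSCs) of old mice with and without p38α. The set holds 40 genes, which are 27 receptor chains, 4 Jak kinases, 4 Stat transcription factors and 5 inhibitors. They were chosen by name, through the gene name that the array design gives to each probe, and all 40 had at least 1 probe, with 59 probes in all. Of these genes, 38 gave a signal well above background on both arrays, among 17191 named genes that did so on at least 1 array. Il2ra and Il13ra1 were below this on both and have no fold.

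The RNA came from LT-HSCs of the bone marrow of C57BL/6J mice aged 2 years, sorted as CD150+CD48-Flt3-CD34- LSK cells (lineage marker-negative, Sca-1+, c-Kit+), and the methods add CD41- to this gate. In the p38α knockout mice (p38αΔ/Δ, labelled p38KO), both alleles of p38α were flanked by loxP sites and a tamoxifen (TAM)-dependent Cre was driven by the ubiquitous CAG promoter, so deletion was not limited to HSCs. They had received TAM about 1 year before. The wild-type group (p38α+/+) is described in the methods as TAM-injected Cre(-) p38αfl/fl mice of the same age, so TAM and the floxed alleles were shared by both groups. Each group was 1 single-colour Agilent array, both on the same slide, and the number of mice behind each array is not given in the sources used here. Because a group is 1 array, the differences between arrays could not be set against a spread between mice and were not tested.

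Most cytokines of the families examined here bind receptors that have no kinase domain of their own. Ligand binding brings receptor-associated Jak kinases together, which phosphorylate the receptor and then Stat proteins, and phosphorylated Stat dimers enter the nucleus and bind DNA. Among the genes they induce are Socs family members and Cish, whose products bind receptors or Jaks and damp the signal, so the pathway carries its own negative feedback. In HSCs this pathway is known for the response to thrombopoietin and interferons, and the adaptor Sh2b3 (Lnk) for limiting it.

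Dimers of several Stat proteins bind DNA at the palindrome TTCNNNGAA, which reads the same on both strands, and the promoters of the 3 Socs family inhibitors with an entry in the promoter table are shown for this reason. The sequences are the 250 bases before the gene start in RefSeq (GRCm38.p6), read in the direction of the gene, with any match in capitals. Socs3, which had a higher signal on the p38KO-labelled array, lies on the minus strand (chr11:117969367-117969616) and Socs1, also higher there, on the minus strand (chr16:10785537-10785786). Cish, which was lower, lies on the plus strand (chr9:107296409-107296658).
Socs3: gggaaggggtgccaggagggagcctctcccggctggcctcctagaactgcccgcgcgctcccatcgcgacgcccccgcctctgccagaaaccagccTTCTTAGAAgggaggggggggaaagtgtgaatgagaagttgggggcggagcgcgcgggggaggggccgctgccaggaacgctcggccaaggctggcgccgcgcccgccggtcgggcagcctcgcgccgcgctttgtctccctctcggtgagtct
Socs1: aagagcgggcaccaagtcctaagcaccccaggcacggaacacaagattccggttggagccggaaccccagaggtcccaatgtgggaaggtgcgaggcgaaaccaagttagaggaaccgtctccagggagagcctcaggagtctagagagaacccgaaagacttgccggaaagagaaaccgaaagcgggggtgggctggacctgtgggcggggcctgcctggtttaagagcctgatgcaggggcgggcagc
Cish: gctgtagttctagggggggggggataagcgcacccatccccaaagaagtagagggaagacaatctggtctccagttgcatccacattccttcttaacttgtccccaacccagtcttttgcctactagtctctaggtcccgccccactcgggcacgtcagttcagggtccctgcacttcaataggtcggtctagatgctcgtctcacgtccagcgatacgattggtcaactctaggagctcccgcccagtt
The Socs3 window held 1 match, TTCTTAGAA, which began 154 bases before the gene start, and the Socs1 and Cish windows held none. Over the 33 member genes with a promoter in the table, 4 held a match (12.1%), in comparison with 8.13% of all 27025 genes. The other 3 were Csf2rb2, Ifnar2 and Il18r1. A match is a description of the letters in this window, and binding was not measured. Csf2rb, Il10ra, Il10rb, Il17ra, Il27ra, Il2rb and Socs2 have no entry in the table.

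Every level below is the log2 signal of a gene's brightest probe after subtraction of the array's 75th percentile, and every difference is the p38KO-labelled array minus the wild-type array. Levels are set side by side within a gene only. The error given with a difference is the scanner software's error of both signals combined, on the log2 scale. It ranged from 0.20 to 0.33 over the members (median 0.20), covers a spot within an array and does not cover the spread between mice. Mapk14, which encodes p38α, stood at 2.34 on the wild-type array and 2.31 on the other (difference -0.037, error 0.20), and its second probe differed by -0.051. The probes did not show the deletion that the label names. The paper does report deletion of p38α, by genomic qPCR of blood cells from mice of this age and TAM schedule. The decrease given there falls short of complete loss. The paper also reports lower expression of p38MAPK pathway genes in the knockout LT-HSCs. The sources used here do not name the deleted exons, so it is not known whether these probes can see it. The second array is therefore called the p38KO-labelled array.

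Markers of other cells differed between the arrays. Their signals are summed per list over different probes, as a description only. Of 17 HSC genes, 17 were measured and 15 were lower on the p38KO-labelled array (median -0.52, summed linear signal 275.9 against 208.7, in units of the array's 75th percentile). The myeloid list was higher for 8 of 14 genes, or 7 of 14 with the mean of all probes. Its summed signal was 219.1 against 298.6, most of it from 1 Itgam probe (7.50 and 7.92), and another Itgam probe was lower (difference -0.42). S100a8, S100a9, Ltf, Ngp and Camp were higher (differences 1.63, 2.01, 2.23, 1.99 and 1.18), and with normexp background correction, which adds 50 units to every signal, the differences of Ltf, Ngp and Camp were 0.88, 0.73 and 0.86. Elane, Prtn3 and Lyz2 were lower (differences -1.41, -0.48 and -0.96), but Mpo was higher (difference 1.02, second probe 0.73, and 0.75 with normexp). Ly6g, measured on the wild-type array only, was at least 2.69-fold lower. Of 11 B cell genes 7 were measured on both arrays, and these 7 were higher. The summed signal of the list was 14.7 against 34.6, most of the difference from Jchain (0.18 and 3.93, 13.5-fold higher), and Igll1 was not well above background. In the T and NK cell list 6 of 8 measured genes were higher (20.6 against 24.9), with Cd3d, Cd3g and Ncr1 not well above background. The lower genes were Klrb1c (difference -0.53) and Zap70. Zap70 was 21.6-fold lower by its brightest probe (difference -4.43, and -2.18 with normexp), but its second probe differed by -0.032. Erythroid genes were higher in 5 of 7 (19.9 against 27.9), and endothelial and stromal genes in 1 of 4 (6.98 against 6.72, Cdh5 and Col1a1 not well above background). Megakaryocyte genes were higher in 4 of 5 (25.6 against 26.7), with Gp6 measured on the p38KO-labelled array only. This was 5 of 5 with quantile normalization and 3 of 5 with the mean of all probes. Of the 4 genes whose proteins the gate removes, Cd48 was 2.59-fold higher by its brightest probe, although the sort took CD48- cells, but a second probe differed by 0.19 (error 0.23) and normexp gave 0.65. The 3 Flt3 probes differed by 0.36, 0.88 and -0.071, and Cd34 and Itga2b were lower (summed signal 9.0 against 8.41). The part of these markers in the results below was not tested. In RNA of sorted populations, fewer cells of a type and less RNA per cell cannot be told apart.

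Of the 38 measured, 19 were lower and 19 higher on the p38KO-labelled array, and 52.4% of all named genes were lower. The median difference was -0.037, beside -0.032 over all named genes, and the members' quartiles of -0.42 and 0.34 lay beside -0.38 and 0.33. At least 2-fold lower were 3 members (7.89% of those measured, against a background of 6.62% of named genes), Il10ra, Il27ra and Socs2. At least 2-fold higher was 1 member (2.63%, background 4.11%), Crlf2. The backgrounds here include genes measured on 1 array only. Over the 15645 named genes measured on both arrays, as all 38 members were, 5.02% were at least 2-fold lower and 3.18% higher. At the threshold of 1.5-fold, 8 were lower (21.1%, background 15.4%) and 4 higher (10.5%, background 12.7%). Quantile normalization in place of the 75th percentile gave 6 lower and 5 higher. With normexp 2 were lower and 1 higher at 1.5-fold, and 0 members were 2-fold lower. The difference exceeded 2 scanner errors in 17 members, 10 lower (26.3%, background 20.2%) and 7 higher (18.4%, background 16.3%), and was under 1 error in 10. Of 11 members with more than 1 probe measured on both arrays, 5 had probes that all differed in the same direction and 6 had probes of both signs.

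**Figure D1:**
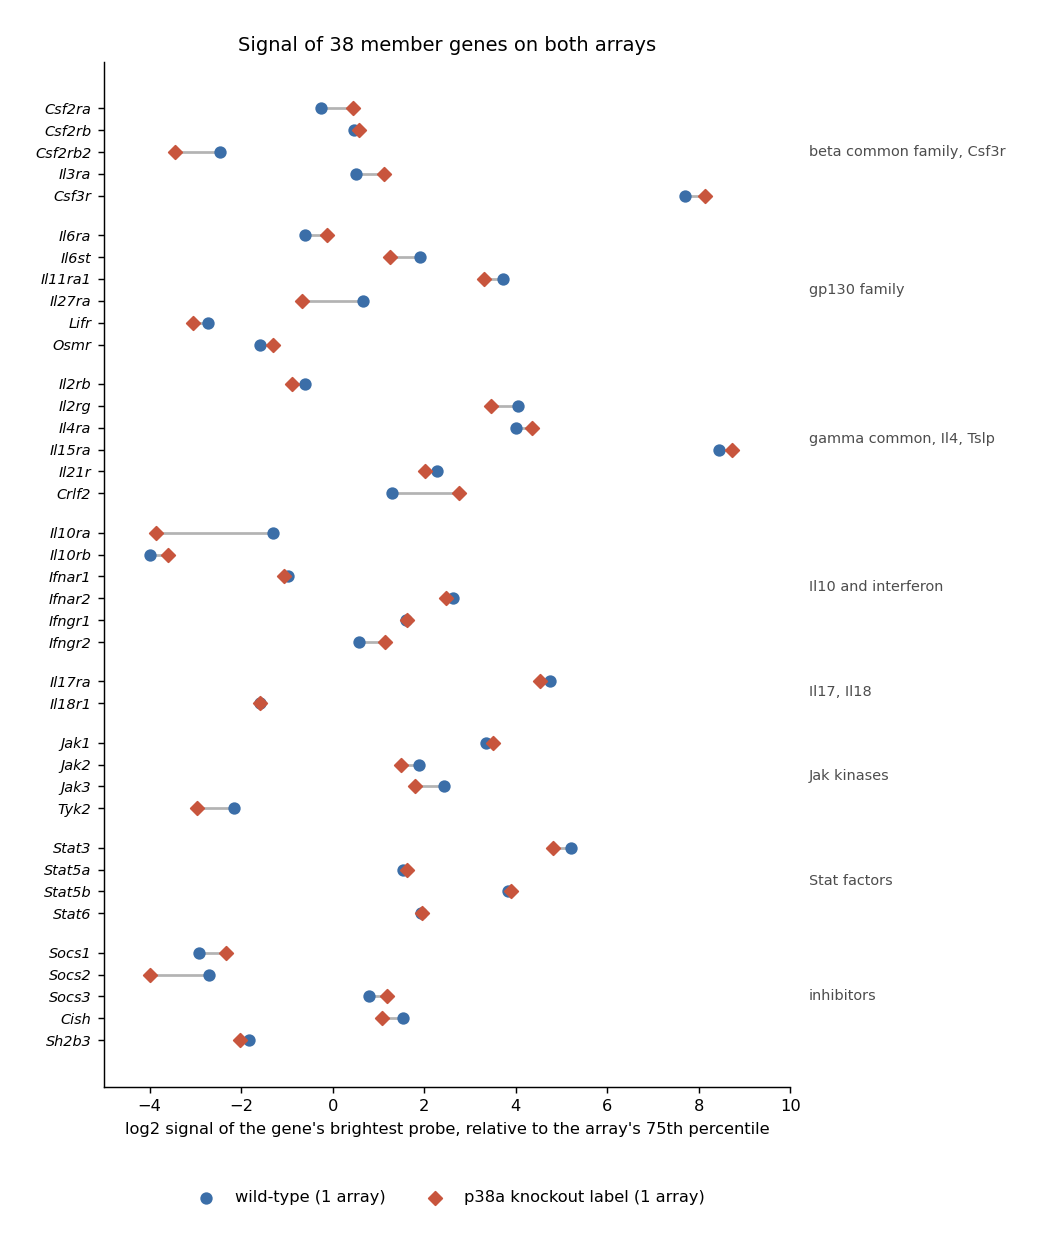
Log2 signal of the brightest probe of 38 member genes (relative to the array's 75th percentile, horizontal axis) on the wild-type array (circles) and the p38KO-labelled array (diamonds), 1 array each, grouped by role; a grey line joins the values of 1 gene, and levels are comparable within a gene only. The longest lines belong to Il10ra, from -1.31 to -3.87, and Crlf2, from 1.30 to 2.75.

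Receptors of the β common family and of G-CSF bind the growth factors of myeloid cells, and 4 of these 5 chains were higher on the p38KO-labelled array (median 0.44). Csf2ra, the ligand-binding chain for GM-CSF, stood at -0.26 on the wild-type array and 0.44 on the other, 1.62-fold higher (difference 0.69, error 0.20). Il3ra, the ligand-binding chain for IL-3, stood at 0.50 and 1.11, 1.53-fold higher (difference 0.61, error 0.20). Csf3r, the G-CSF receptor of granulocytes and their progenitors, stood at 7.69 and 8.13, 1.35-fold higher (difference 0.44, error 0.20). Each of these chains had 1 probe. The myeloid markers given above went in both directions, and their part in these differences was not tested. Csf2rb, the chain that GM-CSF, IL-3 and IL-5 receptors share, differed by 0.12 (0.46 and 0.58), which is under 1 scanner error, and its second probe by -0.020.

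Csf2rb2, the second β chain of the mouse that serves IL-3 alone, went the other way. It stood at -2.47 on the wild-type array and -3.45 on the other, 1.97-fold lower (difference -0.98, error 0.27), and its second probe was also lower, by 0.57 on the log2 scale (difference -0.57, error 0.32). Csf2rb and Csf2rb2 are close relatives in sequence and neighbours in the genome, but each of their probes lists transcripts of its own gene only. The signal was dim on both arrays (25.9 and 10.5 intensity units before normalization). With normexp the difference of Csf2rb2 was -0.19.

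Gp130 (Il6st) is the signalling chain shared by IL-6, IL-11, IL-27, LIF and oncostatin M, and the brightest probes of 4 of the 6 genes of its family were lower on the p38KO-labelled array (median -0.38), but 3 of 6 with the mean of all probes (median -0.12) and at a median of -0.21 with normexp. Il6st itself stood at 1.90 on the wild-type array and 1.25 on the other, 1.57-fold lower (difference -0.65, error 0.20). Il27ra, which pairs with gp130 to bind IL-27 and is carried by HSCs as well as lymphocytes, stood at 0.67 and -0.68, 2.54-fold lower (difference -1.34, error 0.21). Its only probe lies at chr8:86554885-86554944 (mm9). Of all named genes 3.53% had a lower value, and normexp background correction gave -0.89. Il11ra1, the IL-11 binding chain, stood at 3.73 and 3.30 (difference -0.42, error 0.20), but its probe also lists a transcript of Gm13305, so the signals of both genes cannot be separated.

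The other chains of this family differed by less. Il6ra, the IL-6 binding chain, was 1.40-fold higher, at -0.62 on the wild-type array and -0.13 on the other (difference 0.49, error 0.21). Osmr, the oncostatin M chain, stood at -1.60 and -1.30 (difference 0.30, error 0.21). The probes of Lifr, the LIF binding chain, disagreed: the brightest stood at -2.73 and -3.07 (difference -0.34, error 0.24), a second was higher by 0.98 (error 0.27) and the remaining probe was too dim on both arrays. No direction can be given for Lifr.

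The receptors of IL-2, IL-4, IL-15, IL-21 and TSLP, mostly built on the γ common chain Il2rg, govern lymphocytes and mast cells. Of 8 chains 6 were measured, 3 lower and 3 higher. Crlf2, which binds TSLP together with the IL-7 receptor chain, stood at 1.30 on the wild-type array and 2.75 on the other, 2.73-fold higher (difference 1.45, error 0.20). Its only probe lies at chr5:109983732-109983791 (mm9), and the value ranged from 1.38 to 1.51 over the settings tried. In the other direction, Il2rg stood at 4.06 and 3.46, 1.51-fold lower (difference -0.60, error 0.20).

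Il4ra had 2 probes that disagreed in sign. The brighter stood at 4.00 on the wild-type array and 4.35 on the other (difference 0.35, error 0.20), and the dimmer was lower (difference -1.33, error 0.26). Il15ra stood at 8.44 and 8.73 (difference 0.30, error 0.20), its second probe differed by -0.065, and quantile normalization brought the first to 0.035. For Il2rb, the chain shared by IL-2 and IL-15, the brighter probe stood at -0.60 and -0.90 (difference -0.30, error 0.21). The dimmer Il2rb probe gave a signal above background for the p38KO label only, at least 2.04-fold higher, so the direction of Il2rb depended on the probe. Il21r stood at 2.27 and 2.02 (difference -0.25, error 0.20).

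Il10ra, the ligand-binding chain for the anti-inflammatory cytokine IL-10, had the largest difference of the members as reported, though with normexp Crlf2 and Il27ra differed by more. It stood at -1.31 on the wild-type array and -3.87 on the p38KO-labelled array, 5.89-fold lower (difference -2.56, error 0.27), and 0.855% of named genes had a lower value. Its only probe lies at chr9:45062237-45062296 (mm9) and had intensities of 57.8 and 7.88 units, both well above background. With normexp correction the difference was -0.77, so the size depends on how these low signals are corrected. Il10rb, the partner chain that IL-10 shares with IL-22 and the λ interferons, stood at -3.99 and -3.61 (difference 0.39, error 0.33). Its difference with normexp was 0.027.

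Interferon receptors carry the signals through which type I and type II interferons act on HSCs. By the brightest probe, 3 of their 4 chains differed by less than 1 scanner error, but for Ifnar1 this held for that probe only. Ifnar1 stood at -0.98 on the wild-type array and -1.06 on the other (difference -0.075), Ifnar2 at 2.62 and 2.48 (difference -0.14), and Ifngr1 at 1.61 and 1.62 (difference 0.015). Ifnar1 had 2 more probes, which were lower by more (differences -0.68 and -1.06, errors 0.21 each). They were about as bright, at -0.94 and -0.53 on the wild-type array and -1.62 and -1.60 on the other. With the mean of all probes the difference of Ifnar1 was -0.60. Ifngr2, the signalling chain for interferon γ, stood at 0.57 and 1.14, 1.48-fold higher (difference 0.57, error 0.20). Il17ra, the receptor of IL-17, and Il18r1, that of IL-18, signal without Jaks. Il17ra stood at 4.74 and 4.52 (difference -0.22, error 0.20), and Il18r1 at -1.59 on both arrays (difference 0.00013, error 0.21). The second Il18r1 probe was well above background on the p38KO-labelled array only, at least 1.61-fold higher.

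**Figure D2:**
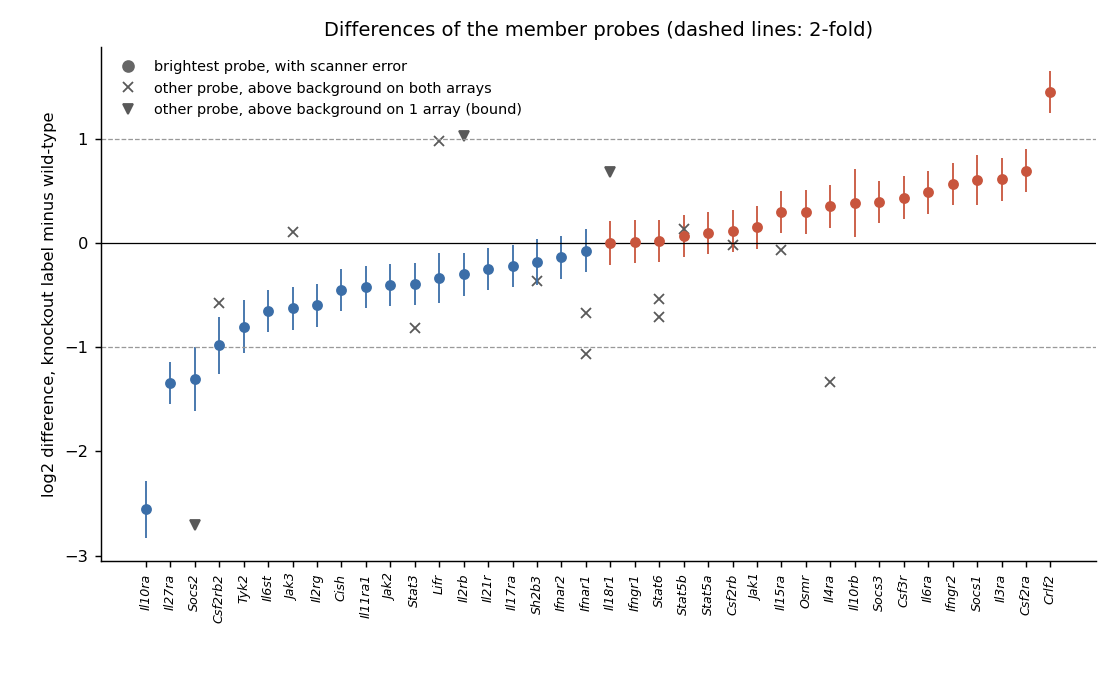
Log2 difference (p38KO-labelled minus wild-type) of every member probe that was well above background on at least 1 array, with genes ordered by their brightest probe (circles, bars are the scanner error of the difference); crosses are other probes measured on both arrays and triangles are lower bounds of other probes measured on 1. Il10ra at -2.56 and Crlf2 at 1.45 form the ends, and crosses lie across zero from the circle for Lifr, Il4ra, Jak3, Stat6, Il15ra and Csf2rb.

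Jak kinases are shared by these receptors, and 3 of 4 were lower on the p38KO-labelled array (median -0.51, or -0.27 with normexp and -0.33 with the mean of all probes). Tyk2, which serves the interferon, IL-10 and gp130 receptors, stood at -2.16 on the wild-type array and -2.96 on the other, 1.74-fold lower (difference -0.80, error 0.25). With normexp the difference of Tyk2 was -0.19. Jak3, the partner of the γ common chain, stood at 2.42 and 1.80, 1.54-fold lower (difference -0.63, error 0.20). A second Jak3 probe differed by 0.11, but it also lists a transcript of the neighbouring gene Insl3. Jak2, the kinase of the thrombopoietin, IL-3 and GM-CSF receptors, stood at 1.89 and 1.49 (difference -0.40, error 0.20). Jak1 stood at 3.35 and 3.50 (difference 0.15, error 0.20), which is under 1 scanner error.

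The Stat genes had a median difference of 0.044 by their brightest probes, with 1 of 4 lower. With the mean of all probes the median was -0.16, with 2 of 4 lower. Stat5a and Stat5b, which carry the thrombopoietin and IL-3 signals, stood at 1.53 and 3.84 on the wild-type array and at 1.62 and 3.90 on the other (differences 0.097 and 0.068), and the second Stat5b probe differed by 0.14. All were under 1 scanner error of 0.20. Stat6, the factor of the IL-4 receptor, stood at 1.93 and 1.95 (difference 0.020), although its 2 dimmer probes were lower (differences -0.71 and -0.54). Stat3, the main factor behind gp130, the G-CSF receptor and IL-10, differed by more, but by less than 2 scanner errors. Its probe was spotted 10 times on each array, and the spots ranged from 5.12 to 5.28 (median 5.21) on the wild-type array and from 4.67 to 4.92 (median 4.82) on the other. The spots of the arrays did not overlap, and the means of 5.21 ± 0.058 and 4.81 ± 0.082 (SD over 10 spots of 1 array) gave a difference of -0.39 (error 0.20). Of all named genes 24.0% had a lower value. How often the spots of other repeated probes did not overlap was not counted. The second Stat3 probe was also lower (difference -0.82, error 0.21).

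Of the 5 inhibitors, 3 were lower and 2 higher on the p38KO-labelled array. Socs2, a Stat5-induced inhibitor of growth hormone and cytokine signalling, was spotted 10 times (chr10:94875066-94875125, mm9). The spots ranged from -3.06 to -2.35 (median -2.68) on the wild-type array and from -4.43 to -3.38 (median -4.01) on the other. They did not overlap, and the means of -2.70 ± 0.24 and -4.01 ± 0.33 (SD over 10 spots of 1 array) correspond to 2.47-fold less signal (difference -1.30). The repeated spots measure the error within an array, and share 1 RNA sample and 1 probe. As for Stat3, the share of all repeated probes without overlap was not counted.

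Another Socs2 probe (chr10:94875187-94875246, mm9), was well above background on the wild-type array only and was at least 6.51-fold lower on the p38KO-labelled array. The remaining 2 Socs2 probes were not well above background on either array. Socs2 was dim (22.1 and 7.17 intensity units), and normexp correction brought its difference to -0.57.

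Cish, another Stat5-induced inhibitor, stood at 1.53 on the wild-type array and 1.08 on the other, 1.37-fold lower (difference -0.45, error 0.20). Socs1, which blocks Jaks after interferon signalling, went the opposite way, at -2.93 and -2.32, 1.52-fold higher (difference 0.60, error 0.24). Its difference with normexp was 0.18. Socs3, which binds gp130 and the G-CSF receptor, stood at 0.79 and 1.18, 1.31-fold higher (difference 0.39, error 0.20). Of the promoters printed above, the one with the Stat palindrome belongs to a gene with a higher signal and the windows without it to 1 gene of each direction. Sh2b3 stood at -1.84 and -2.02 (difference -0.18, error 0.22), and its second probe was also lower (difference -0.36, error 0.26).

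**Figure D3:**
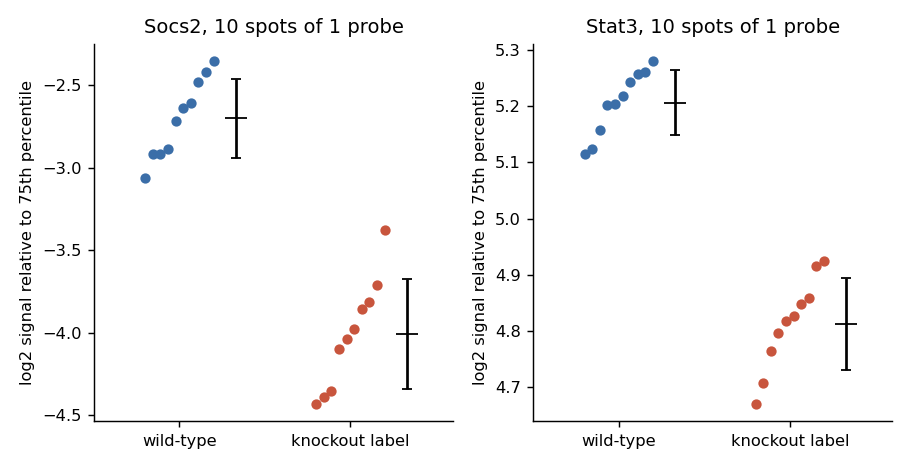
Log2 signal (vertical axis, relative to the array's 75th percentile) of the 10 spots of the Socs2 probe and of the Stat3 probe on the wild-type array and the p38KO-labelled array, sorted by value within an array; the bar is the mean and SD of the 10 spots. The Socs2 means are -2.70 and -4.01 and the Stat3 means 5.21 and 4.81. The spots of an array share their RNA sample and probe, and how often other repeated probes separate in this way was not counted.

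The rest of the pathway was read from lists of other genes. Of 26 further cytokine receptor genes 24 were measured, 7 lower and 17 higher on the p38KO-labelled array (70.8%, beside 47.6% of all named genes), with a median of 0.23. The median was 0.073 with normexp and 0.079 with the mean of all probes (9 lower, 15 higher), and 6 of the 21 measured on both arrays were lower. Furthest below among those measured on both arrays were Il20rb, at -1.75 on the wild-type array and -4.22 on the other (5.55-fold lower), and Il12rb2, the signalling chain of IL-12, at 0.63 and -0.37 (2.00-fold lower). A second Il20rb probe was well above background on the p38KO-labelled array only, and both probes of Il12rb2 were lower. Furthest above were Ifnlr1, the λ interferon chain (1.56-fold), and Il22ra1 (1.48-fold). Il17rd, measured on the p38KO-labelled array only, was at least 7.38-fold higher and is named because it was the only other receptor past 2-fold in that direction. All of these but Il12rb2 were dim, and with normexp correction their differences were -0.52 (Il20rb), 0.12 (Ifnlr1), 0.16 (Il22ra1) and 0.78 (Il17rd).

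Irf9, which binds DNA together with Stat proteins after type I interferon, stood at 1.92 on the wild-type array and 1.29 on the other, 1.54-fold lower. Of 17 other inhibitors 16 were measured, 10 lower and 6 higher (median -0.29, or -0.19 with normexp). Pias4, a Stat inhibitor, was 1.99-fold lower and Ptpn6, the phosphatase Shp-1, 1.68-fold lower, while Sh2b2 was 1.81-fold and Socs4 1.37-fold higher. Usp18, which restrains the type I interferon receptor, was measured on the wild-type array only. It was 2.40-fold lower by a reading on the other array that was not well above background. Among 8 adaptors 6 were lower (median -0.34; 8 with the mean of all probes), with Gab1 2.32-fold and Gab2 1.87-fold lower. Stam2 and Stam were 1.39-fold and 1.36-fold higher by their brightest probe, but each had a second probe that was lower (differences -0.55 and -0.78). With normexp correction the differences were -0.49 for Pias4, 0.28 for Sh2b2, -0.16 for Usp18, -0.69 for Gab1 and -0.44 for Gab2, and that of Stam turned to -0.43.

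Genes known to be induced by Stat proteins were lower in 11 of the 15 measured (73.3%, beside 52.4% of all named genes), with a median of -0.23. The median was -0.15 with normexp, quantile or loess normalization and -0.51 with the mean of all probes. Pim1, a survival kinase induced by Stat5, stood at 0.033 on the wild-type array and -1.25 on the other, 2.44-fold lower (difference -1.29, error 0.21), and by normexp the difference was -0.82. Cebpb, a myeloid transcription factor, was 1.89-fold lower (difference -0.92). Id1 was 1.25-fold higher (difference 0.32) and Fos 1.08-fold higher (difference 0.10). Phosphorylated Jak or Stat proteins were not measured on these arrays.

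**Figure D4:**
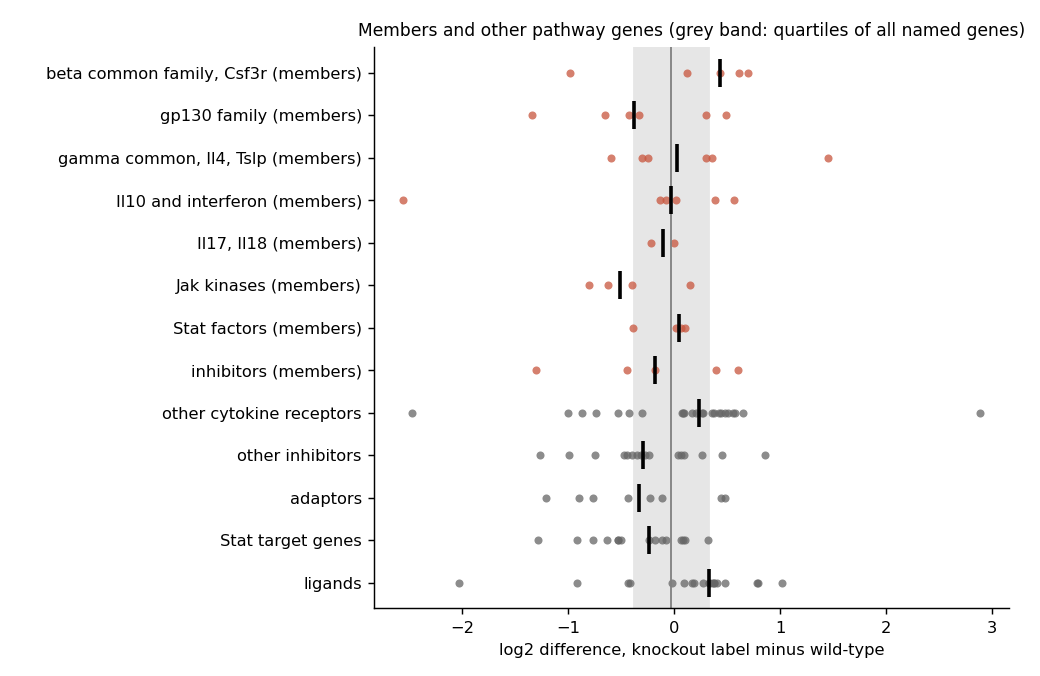
Log2 differences (p38KO-labelled minus wild-type, horizontal axis) of the member genes by role and of the other pathway lists, 1 point per gene with black bars at the medians. The grey band and line are the quartiles and median of 17191 named genes. Genes measured on 1 array are at their lower bound, or at the dim reading where it was not raised. The medians reach from -0.51 for the Jak kinases to 0.44 for the β common family, with the other receptors at 0.23 and the Stat targets at -0.23; with normexp the Jak kinases were at -0.27 and the other receptors at 0.073.

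With normexp correction the difference was 1.38 for Crlf2, 0.50 for Csf2ra, 0.52 for Il3ra, -0.55 for Il6st, -0.48 for Il2rg and -0.53 for Jak3, each within 1 scanner error of the value reported. Il10ra, Il27ra, Socs2, Csf2rb2, Tyk2 and Socs1 moved toward 0 by more than their scanner error.

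**Figure D5:**
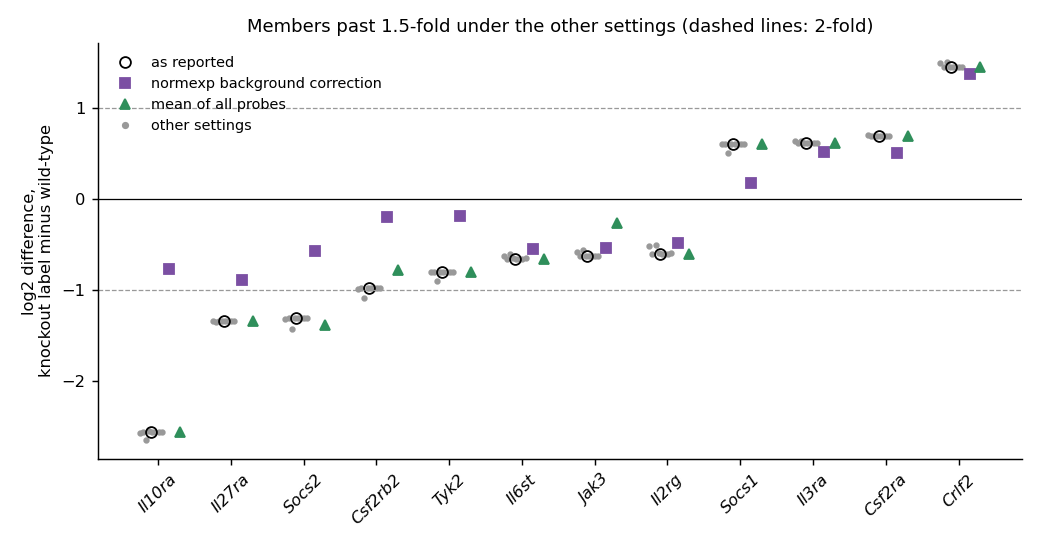
Log2 differences (p38KO-labelled minus wild-type, vertical axis) of the 12 members past 1.5-fold as reported (open circles) and under the other settings; squares are normexp background correction and triangles the mean of all probes of a gene. Il10ra lies at -2.56 as reported and at -0.77 with normexp, and Crlf2 stays between 1.38 and 1.51.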

How the data were processed

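Per the file headers, the scanner intensities were read with Agilent Feature Extraction 11.5.1.1, which corrected each of 62976 spots per array for background, and the authors deposited them without normalization between arrays; probe coordinates are those of mm9. A second deposited file holds the authors' normalized log2 values of 35795 probes, which differ from the log2 intensity of the same array by a nearly constant amount (median 7.16 for wild-type and 6.84 for p38KO), close to the 75th percentiles of 7.16 and 6.85. This table was used as an alternative.

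From the intensities, control spots and spots marked as outliers were left out, log2 values of a probe's spots were averaged and each array's 75th percentile was subtracted. Members were matched by the file's gene name, other genes through RefSeq symbols, synonyms or accessions (GRCm38.p6, names only), and a gene took the value of its probe with the highest mean signal. Genes were used where that probe passed the scanner's test against background on 1 array or both (67.9% of probes passed on the wild-type array and 69.0% on the other, and 0 were saturated). Where 1 side was dim and lay under that array's lowest signal well above background, it was raised to that signal, so the fold is a lower bound. A dim side above that signal, as for Usp18 and Il6, kept its reading. The number of arrays limits the precision. Repeated probes had a median SD of 0.090 and 0.097 (log2) between spots.

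The members and gene lists were chosen with earlier results of these data known. Every member is named; of the other lists, the 2 genes furthest below and the 2 furthest above among those measured on both arrays are named, as are Mapk14 and defining markers, and other genes were named after their values were seen. Some genes of these lists are not reported here. The calculation steps were also tested on simulated data. Alternative settings were quantile normalization, median centring, a loess between arrays (span 0.3), normexp with an offset of 50 followed by quantile normalization, the authors' values, 2 other filters on signal, values without the floor, a mean over a gene's probes, and outlier spots kept. Python 3.11.15, numpy 2.4.6, pandas 2.3.3, R 4.3.3 and limma 3.58.1 were used.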

Additional observations from a re-analysis of the deposited data

How the results depend on the processing

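Of 380 member values under the 10 alternatives, 362 moved by less than the scanner error of the difference and 18 by more, and none of the 4 members past 2-fold changed direction. The 362 include values that could not move. All 38 members were measured on both arrays, so the 2 other filters on signal and the values without the floor left each of them unchanged. Median centring and the authors' values shifted all members by nearly the same small amount. The mean of all probes could not move members with 1 probe, among them Il10ra, Il27ra and Crlf2. Keeping outlier spots moved the members' median only from -0.037 to -0.036. The sign was the same under every alternative for 33 of 38 members. The exceptions were Lifr, Il2rb, Il4ra and Stat6, which turned with the mean of all probes (0.19, 1.35, -0.49 and -0.41), and Il18r1, whose reported difference is near 0. The members' median lay between -0.073 and -0.022. With normexp, which adds 50 units to every signal, 0 members reached 2-fold lower, and 2 were lower and 1 higher by 1.5-fold or more. Over all named genes the counts at 2-fold were then 124 lower and 58 higher, in place of 1138 and 707. Without a filter on signal 1216 named genes were at least 2-fold higher. The mean of all probes put 2 members at least 2-fold higher, Crlf2 and Il2rb. No paired analysis was possible because each group is 1 array, and no replicate could be left out. What limits dim genes here is signal over background, and the number of arrays limits all of them.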

Other observations

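Ligands of these receptors were also on the arrays. Of 34 cytokine genes 19 had a signal well above background, 12 of them on both arrays. Of the 12, 8 were higher and 4 lower on the p38KO-labelled array, with a median of 0.23, and without a filter on signal 18 of the 34 were higher and 16 lower (median 0.13). Among those measured on both, Clcf1, a gp130 ligand, was 1.72-fold higher and Il27, a subunit of the ligand of the lower Il27ra, 1.40-fold higher (differences of 0.41 and 0.36 with normexp). Il15, the ligand of Il15ra, was 1.89-fold lower and Il18 1.36-fold lower, and with normexp both differences were -0.14. Past 2-fold were Il7, at least 4.09-fold lower and measured in wild-type only, and Il6, measured with the p38KO label only. Il6 was 2.03-fold higher than a wild-type reading that was not well above background. With normexp, however, the differences of Il7 and Il6 were -0.35 and 0.11. Csf2, Csf3, Lif, Osm, Il10, Ifng, Epo and Thpo were among the 15 not well above background on either array.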
